A study of Canis lupus familiaris with 8 samples.

Results

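CMT-Stylo is a canine mammary carcinoma cell line that is sensitive to doxorubicin. The comparison described here sets cells sorted from it for stem-like features against the unsorted line. It rests on 4 of the series' 8 arrays, chosen by sample title, with n = 2 arrays in each group. The group Stylo CSC holds total RNA of cells sorted by flow cytometry as positive for CD44 and aldehyde dehydrogenase activity and low or negative for CD24. The group Stylo parent holds total RNA of the line without a sort, which may include cells of the same kind. Neither group was treated, and both were grown in DMEM with serum. The other 4 arrays, of the doxorubicin-resistant subline CMT-Star (resistant at 100 nM) and its sorted cells, both labelled as treated with doxorubicin, enter the fit and are compared in 1 paragraph. All groups stem from 1 cell line, and the labels do not say that the replicates came from separate cultures. The p-values thus speak only of array-to-array spread, possibly technical.

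Cells with this surface pattern are used in mammary carcinoma as a working definition of cancer stem cells, the fraction able to start a new tumour and to outlast chemotherapy. CD44 is the receptor for the matrix sugar hyaluronan, CD24 is a small surface glycoprotein of more differentiated epithelium, and aldehyde dehydrogenases oxidise retinal and toxic aldehydes. Such cells have been tied to a mesenchymal, matrix-producing state, to hypoxia and glycolysis, and to autocrine inflammatory signals, which is why those genes were grouped.

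Levels below are log2 processed signals minus the array's 75th percentile, so that 0 is that percentile. Differences are Stylo CSC minus Stylo parent on the log2 scale, with the standard error (SE) of the limma fit. Probes entered the test when both arrays of 1 or both groups read them well above background. It was called with a Benjamini-Hochberg adjusted p under 0.05 and a change of at least 2-fold. Of 24200 probes tested, 13047 were called, which is 53.9% of them, with 5888 higher (24.3%) and 7159 lower (29.6%) in Stylo CSC. A call was thus the usual outcome for a probe, and each count of genes below has to be read against these shares. A gene symbol could be given to 882 tested genes. Of these, 184 rose (20.9%) and 313 fell (35.5%), and the median difference over all 882 was -0.43. The arrays of the 2 groups overlapped for none of the genes called and for 72 of the 385 not called. Sorted arrays that both lie above or below both unsorted ones were thus usual as well. Of the 882, 742 were well above background on all 4 arrays, 84 on both arrays of Stylo CSC and neither of Stylo parent, and 13 the other way round. A gene that passed through 1 group only could hardly be called in the other direction, so the counts are no independent support.

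All 4 arrays came from 1 slide scan, but they differed in brightness. The 75th percentile of signal was 311 and 297 on the Stylo CSC arrays and 88.8 and 69.5 on the Stylo parent arrays. Well above background were 55.5% and 56.1% of spots on the former and 47.4% and 46.7% on the latter. Of the summed signal, the brightest 100 spots made up 21.9% and 22.7% in Stylo CSC against 32.4% and 33.7% in Stylo parent. Replicates correlated at 0.994 and 0.988, and arrays of different groups at 0.871 to 0.879. Because the signal distributions differed in shape, a second scaling by quantile normalization was set beside the first. It gave 6932 higher (28.6%) and 5851 lower (24.2%), 11683 probes were called in the same direction by both, and no probe was called in opposite directions. Median scaling gave 8092 higher and 5025 lower, normexp background correction 4034 and 9036, and scaling to spike-in controls 17067 and 264. Among named genes, quantile normalization left the median difference at -0.11, and 184 rises (20.9%) and 216 falls (24.5%) were called under both scalings. In what follows, a rise or fall is said to hold when both scalings called it. All 184 rises of named genes held, so that holding is no added support for a rise. Of the 313 falls, 216 held. Spike-in scaling added about 2.10 to each difference, so that falls smaller than that turned positive, and normexp turned some rises of dim genes negative. A difference given below as at least so many fold is a bound with the first scaling alone. A gene given by a bound was tested only through its brighter group and could hardly be called the other way. With normexp the log2 differences behind the largest bounds were smaller: ADGRL2 3.27, MX1 2.27, NR4A1 1.79, ADORA2A 0.70, CCL5 0.46 and PLG -2.75.

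**Figure D1:**
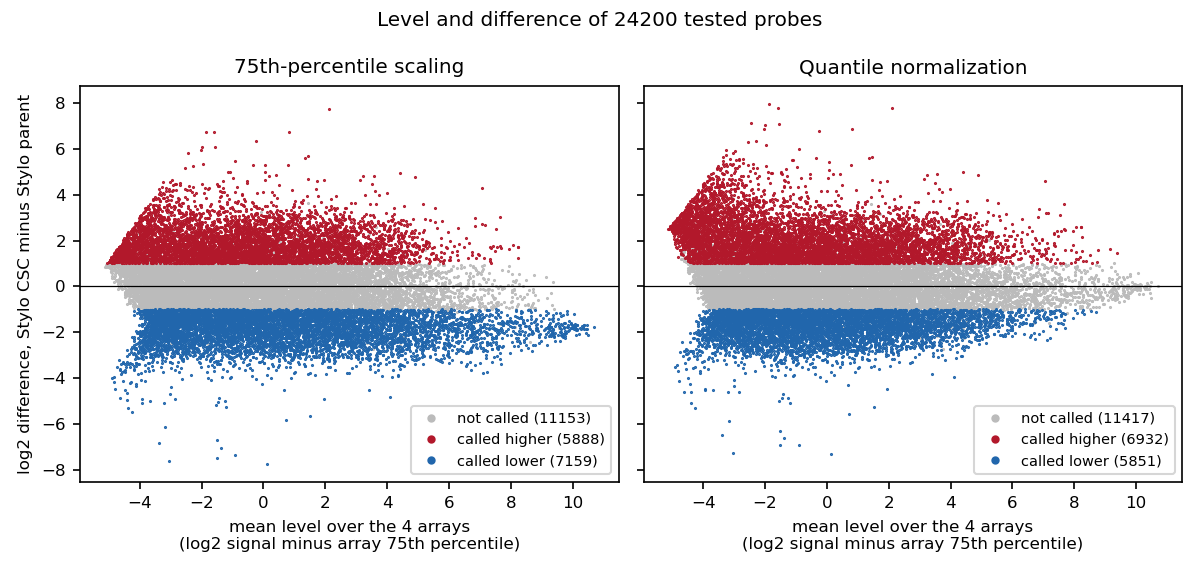
Log2 difference, Stylo CSC minus Stylo parent, against the mean level over the 4 arrays for the 24200 tested probes, with the 75th-percentile scaling on the left and quantile normalization on the right; red points were called higher, blue points lower and grey points neither. With the first scaling the brightest probes lie below 0, and among the probes above the third quartile of level 1117 were called higher and 2435 lower. With quantile normalization these counts were 1378 and 1454.

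The genes tied to the sort came first, as a check on the labels at the level of RNA. CD44 was at 2.00 and 1.91 on the Stylo CSC arrays and at 0.80 and 1.14 on the Stylo parent arrays. Both sorted arrays were thus above both unsorted ones, but the difference of 0.99 ± 0.13 (adjusted p = 0.000741) stayed just under the 2-fold limit, and quantile normalization (1.04) put it above. PROM1, whose product CD133 is another stem cell marker, was at -1.12 and -0.94 in Stylo CSC, at least 4.57-fold over a Stylo parent level not well above background (adjusted p = 0.00102). ALDH3A1, an aldehyde dehydrogenase of epithelia, went the other way, at 1.66 and 1.73 against 3.16 and 3.62, a fall of 1.69 ± 0.19 on the log2 scale that held. PODXL, a sialomucin found on stem-like and migrating cells, fell as well (-2.28 ± 0.29). BMI1, a Polycomb repressor of self-renewal, stood at -0.73 ± 0.10 and the telomerase subunit TERT at -0.51 ± 0.24, and neither was called. ALDH1A1, ALDH1A2 and KIT were not well above background on both arrays of either group, and CD24 and ALDH1A3 have no probe named here. In all, 1 of the 6 tested sort and stem cell genes rose and 2 fell.

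Most structural matrix genes tested rose. Fibrillar collagen and its associated proteins form the scaffold around mesenchymal cells. COL1A2, a chain of type I collagen, was at 9.12 and 9.23 in Stylo CSC and 6.22 and 6.07 in Stylo parent, a difference of 3.03 ± 0.22 (8.15-fold, adjusted p = 5.5e-05). It was among the brightest named genes, the groups lay far apart, and all 6 of its tested probes were called higher. Its partner chain COL1A1 rose by 2.42 ± 0.12, from 1.30 and 1.53 to 3.89 and 3.79. FBN1, which builds the microfibrils of elastic tissue, was at 4.72 and 4.81 against 1.69 and 1.73, a difference of 3.05 ± 0.09 seen with all 4 probes. The small leucine-rich proteoglycans BGN (3.06 ± 0.15) and DCN (1.64 ± 0.10), which bind collagen and growth factors, rose too. Both Stylo parent arrays read SMOC2, a matricellular protein, and DAG1, the laminin receptor dystroglycan, not well above background. Their levels in Stylo CSC were at least 3.15-fold and 5.56-fold higher.

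Not every matrix gene followed. COL7A1, the anchoring fibril collagen of epithelial basement membranes, fell by 2.41 ± 0.52 on the log2 scale, and DPT, a small protein that binds decorin, by 1.96 ± 0.16. Of the 12 matrix genes tested, 7 rose and 4 fell, with a median of 1.84 (2.10 with quantile normalization, -0.53 with normexp). All 7 rises held under quantile normalization and 3 of the falls did. Without Stylo parent replicate 2 the falls numbered 2, since ACAN (-0.50) and TNC (-0.99) no longer passed the fold limit.

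Several genes of pericellular proteolysis fell. Urokinase turns plasminogen into the broad protease plasmin, and tissue factor starts clotting on the cell surface. PLAU, which encodes urokinase, was at 4.58 and 4.14 in Stylo parent and at -1.35 and -1.30 in Stylo CSC. It was 51.3-fold lower (-5.68 ± 0.21, adjusted p = 8.43e-06), with both tested probes agreeing in direction. Its log2 difference was -3.64 with normexp and -3.58 with spike-in scaling. PLG, plasminogen itself, was at 0.75 and 0.78 in Stylo parent and not well above background in Stylo CSC, at least 47.3-fold lower. The enzyme and its substrate were both lower on both sorted arrays, and each fall held. PLG, however, was tested only through Stylo parent, where it is high, and could hardly be called otherwise. Its fall is thus no independent support for that of PLAU.

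The clotting genes F3, tissue factor (-1.80 ± 0.10), and TFPI, its inhibitor (-2.18 ± 0.12), fell as well. So did the kallikrein KLK1 (-2.70 ± 0.27) and the leukocyte protease inhibitor SLPI (-1.72 ± 0.09). The exception among the 14 tested proteases and inhibitors was SERPINF1, which encodes the secreted factor PEDF: it was at 6.87 and 6.84 against 5.35 and 5.31, a rise of 1.52 ± 0.08. Counted together, 7 fell and 1 rose, and all 8 calls held, that of PLG with the limit given above. The median was -1.01 (-0.80 with quantile normalization, 1.09 with spike-in scaling). TIMP2, ADAM9 and ADAM17 were called by neither scaling, and TIMP1, TIMP3 and MMP11 were called higher with quantile normalization but not with the first scaling.

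**Figure D2:**
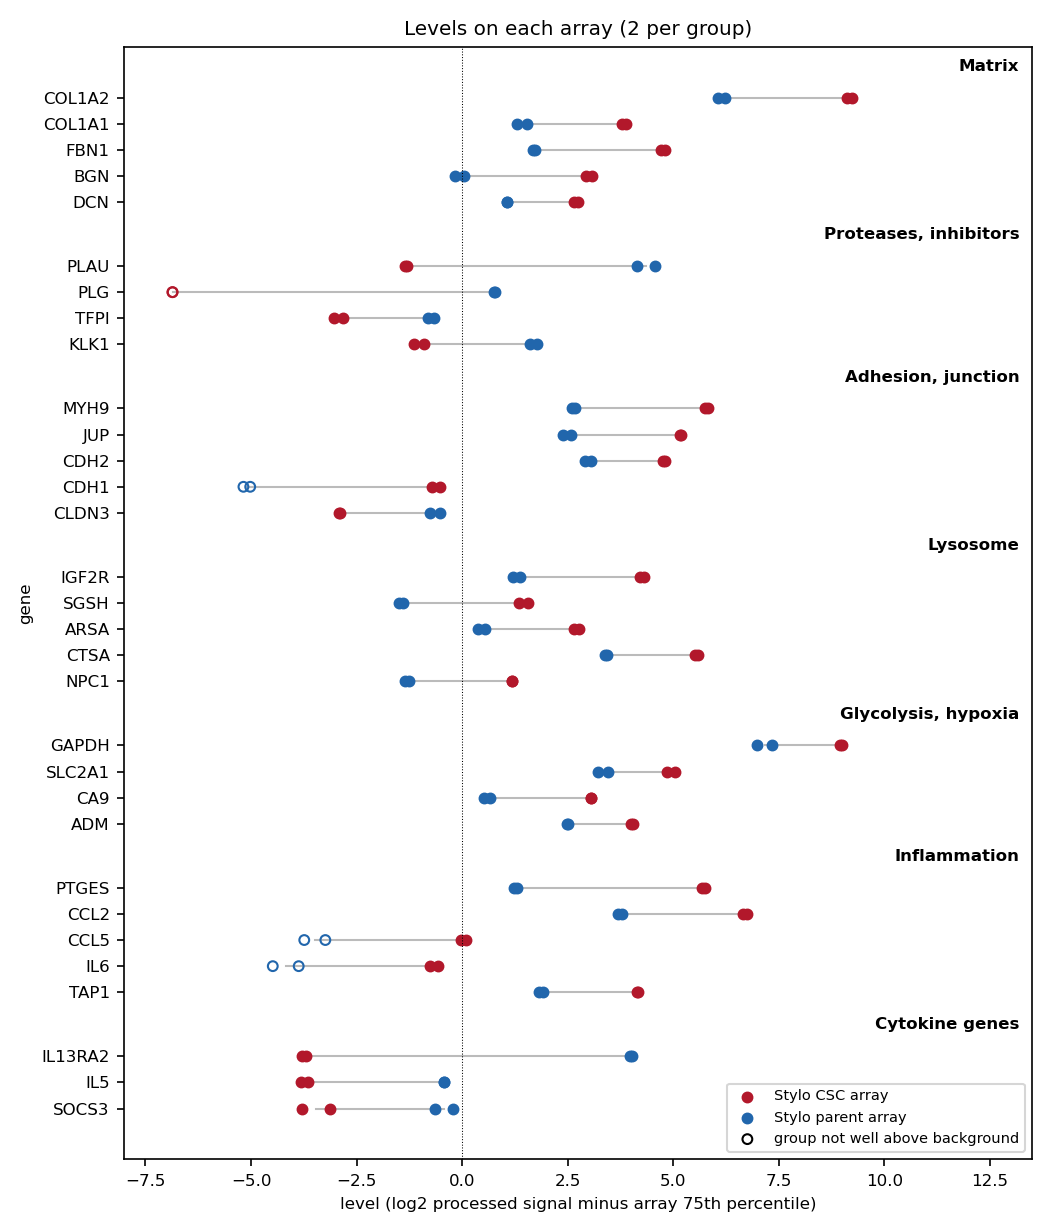
Level of selected genes on each of the 4 arrays, as log2 processed signal minus the array's 75th percentile (horizontal axis), with 1 row per gene; red circles are Stylo CSC arrays, blue circles Stylo parent arrays, open circles a group not well above background, and grey lines join the group means. The groups do not overlap for any gene shown, as was so for every named gene called. The matrix, lysosomal, glycolytic and inflammatory genes shown lie to the right in Stylo CSC, and PLAU (4.58 and 4.14 against -1.35 and -1.30) and IL13RA2 to the left.

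Genes of cell shape and contact were mixed. MYH9, the heavy chain of nonmuscle myosin that contracts the cell cortex, was at 5.75 and 5.82 against 2.60 and 2.67 (3.15 ± 0.19). JUP, the desmosomal and adherens junction protein plakoglobin, rose from 2.38 and 2.58 to 5.18 and 5.17 (2.69 ± 0.16), with 4 of its 5 probes called. Both classical cadherins were higher: CDH2, of mesenchymal cells, by 1.80 ± 0.12, and CDH1, of epithelium, at least 6.12-fold over a Stylo parent level not well above background. CDH1 stood at -0.70 and -0.51 in Stylo CSC, with 2 of 2 probes called, but normexp gave -0.09. CTNNB1, the catenin that binds cadherins, stood at 0.60 ± 0.20 and was called higher with quantile normalization but not with the first scaling. The tight junction scaffold TJP1 rose (1.34 ± 0.12), while the tight junction strand protein CLDN3 (-2.26 ± 0.21) and the gap junction protein GJB2 (-1.73 ± 0.39) fell. Of 11 tested junction and keratin genes 4 rose and 3 fell, and KRT14, a basal keratin, stood at -0.98 and was not called.

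Among 12 actin and mesenchymal genes, 5 rose and held (MYH9, CDH2, EZR, VASP and TCF4). EZR, which ties actin to the membrane, rose by 1.19 ± 0.27, and VASP, which lengthens actin filaments, by 1.10 ± 0.23. VIM, the mesenchymal intermediate filament, was one of the brightest genes, at 9.41 and 9.55 against 9.17 and 9.36. Its difference of 0.21 ± 0.11 was not called, but quantile normalization gave 1.47 and called it. S100A4, a calcium-binding protein of motile cells, was called lower (-1.96 ± 0.11), a call that quantile normalization ended (-0.24). Of 11 integrin and adhesion genes 6 were called higher by their representative probes, among them ALCAM (1.43 ± 0.26) and THY1, which has another probe called lower. The gene called lower was CD47, the surface signal that restrains phagocytes (-2.11 ± 0.10).

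Glycolysis and hypoxia genes rose in 7 of 10, and all 7 rises held. GAPDH, a glycolytic enzyme, was at 8.99 and 8.94 in Stylo CSC against 7.34 and 7.00, a difference of 1.80 ± 0.19, with 7 of 7 probes called higher. It was among the brightest genes on all 4 arrays, a range in which more probes were called lower than higher. SLC2A1, the main glucose carrier, rose by 1.61 ± 0.12 and ALDOC, a glycolytic aldolase, by 1.21 ± 0.09. HIF1A, the hypoxia-inducible transcription factor, rose by 1.15 ± 0.08, and its known targets CA9, which acidifies the outside of hypoxic cells (2.45 ± 0.14), ADM (1.52 ± 0.08) and NDRG1 (2.05 ± 0.17) rose as well. LDHB, the lactate dehydrogenase of respiring cells, was called lower (-1.63 ± 0.12), but not with quantile normalization (-0.39). VEGFA was called by neither scaling, and TPI1 was called higher with quantile normalization but not with the first scaling. The list's median was 1.37 (1.63 with quantile normalization), above 0 under each of the 7 scalings.

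Lysosomal genes rose in 8 of 16 and fell in 3. IGF2R, the receptor that carries enzymes with a mannose 6-phosphate tag to the lysosome, was at 4.31 and 4.22 in Stylo CSC and at 1.20 and 1.38 in Stylo parent, a difference of 2.97 ± 0.10 (7.83-fold). SGSH, which degrades heparan sulfate, was at 1.35 and 1.57 against -1.39 and -1.50 (2.91 ± 0.12). Both sorted arrays exceeded both unsorted arrays by a wide margin for each. The hydrolases ARSA (2.25 ± 0.16), CTSA (2.14 ± 0.08) and GLB1 (1.16 ± 0.11) and the membrane protein CLN3 (1.72 ± 0.18) rose, as did the lysosomal cholesterol exporter NPC1 (2.49 ± 0.27), counted with the lipid genes. GLB1 is the enzyme read out by the senescence stain for beta-galactosidase, and 6 of its 9 tested probes were called higher. CTSK, a collagen-degrading cathepsin, fell by 1.80 ± 0.11 on the log2 scale.

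Carriers of the plasma membrane rose more often than they fell, with 6 of 12 nutrient and osmolyte carriers higher and 1 lower. SLC29A1, a nucleoside carrier that also takes up nucleoside drugs, was at 2.68 and 2.62 against -0.43 and -0.40 (3.06 ± 0.15), although only 1 of its 2 probes was called. SLC2A9, a urate carrier (1.77 ± 0.10), and SLC1A3, a glutamate carrier (1.48 ± 0.28), rose, and SLC7A1, a carrier of basic amino acids, fell (-1.65 ± 0.14). The calcium pumps ATP2A2, of the endoplasmic reticulum (3.28 ± 0.18), and ATP2B1, of the plasma membrane (1.89 ± 0.10), were higher. Potassium channel genes ran the other way: KCNA5, KCNE2 and KCNMB1 were called lower among 4 tested, KCNMB1 not without Stylo parent replicate 1 (-0.98).

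Drug transporters were split, with 3 of 8 higher and 3 lower. ABCC1, the efflux pump MRP1, was at 2.21 and 1.87 against -1.11 and -0.96 (3.08 ± 0.14), and ABCC5 rose by 2.01 ± 0.19. MVP, the major vault protein linked to drug resistance, rose by 2.18 ± 0.14. ABCB1, P-glycoprotein, stood at 0.68 ± 0.10 and was not called. The retinal flippase ABCA4, the prostaglandin carrier SLCO2A1 (-1.55 ± 0.35) and SLCO1B3 (at least 4.79-fold) were lower in Stylo CSC.

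Inflammatory genes moved in both directions. PTGES, the terminal enzyme of prostaglandin E2 synthesis, was at 5.76 and 5.68 in Stylo CSC against 1.23 and 1.31, 21.9-fold higher (4.45 ± 0.40, adjusted p = 0.000119). The prostaglandin E2 receptor PTGER4 (1.41 ± 0.11) and the second synthase PTGES2 (1.45 ± 0.13) rose too, and 5 of 9 tested prostaglandin genes were higher. PTGS2, the inducible cyclooxygenase upstream of them, was not called. Chemokines differed among themselves. Higher were CCL2, which attracts monocytes, at 6.66 and 6.74 against 3.78 and 3.70 (2.96 ± 0.11), CCL8 (2.79 ± 0.12) and CCL5 (at least 9.56-fold), while CCL17, which attracts T cells, was called lower (-1.11 ± 0.17) and held, though not without Stylo parent replicate 2 (-0.87). IL6, a cytokine that drives STAT3 signalling, was at least 5.88-fold higher, its Stylo parent level not being well above background. NFKB1, the p105 and p50 subunit of NF-kB, rose by 2.26 ± 0.10.

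Several cytokine genes were lower in the sorted cells. IL5, an eosinophil growth factor, was at -0.43 on both Stylo parent arrays and at -3.82 and -3.64 in Stylo CSC (-3.30 ± 0.11), and IL12A (-2.17 ± 0.17) and LTA (-1.86 ± 0.21) fell. For CSF2 and IL17A, not well above background in the sorted cells, the falls were at least 5.16-fold and 4.46-fold. Counting all 25 chemokines, cytokines and NF-kB targets, 10 rose and 7 fell, and 10 and 6 were called under both scalings. Their median of 0.00 (0.80 with quantile normalization, -0.98 with normexp) was above that of all named genes with the first 2 and below it with the last.

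IL13RA2 had the largest fall of any named gene well above background on all 4 arrays. It encodes the decoy receptor that binds interleukin-13 without passing on its usual signal. Its level was 4.03 and 3.97 in Stylo parent and -3.69 and -3.79 in Stylo CSC, a 214-fold difference (-7.74 ± 0.13, adjusted p = 7.61e-06). All 3 of its probes were called lower, and it was called under each of the 7 scalings. The size depended on scaling, with a log2 difference of -4.45 with normexp and -5.64 with spike-in scaling. SOCS3, the feedback inhibitor of cytokine signalling, fell by 3.02 ± 0.26 on the log2 scale, from -0.65 and -0.21 to -3.12 and -3.78. The chemokine receptors CCR3 (at least 5.41-fold) and CCR4 (-3.32 ± 0.75) were lower, and CCR4 was well above background on 1 of the 2 Stylo CSC arrays, so that its difference is uncertain. TLR2, a sensor of bacterial lipoproteins, was at least 3.33-fold higher.

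Antigen presentation genes rose in 6 of 9 and fell in none. TAP1, a subunit of the pump that loads peptide onto class I molecules, was at 4.16 and 4.14 against 1.92 and 1.83 (2.27 ± 0.09), and its partner TAP2 rose by 2.17 ± 0.15. The canine class I genes DLA88 (1.21 ± 0.10) and DLA-64 (1.34 ± 0.10) rose less; as close paralogs they may share signal. Interferon genes were higher in 3 of 7, with MX1, an antiviral GTPase, at 1.83 on both Stylo CSC arrays and at least 33.2-fold above Stylo parent. MX1, however, was tested only through Stylo CSC, where it is high, and could hardly be called lower. The median of the 7 interferon genes was 0.77 (1.38 with quantile normalization, -0.94 with normexp). OAS1 and OAS2, which sense double-stranded RNA, were called by neither scaling, and OAS3 was called higher with quantile normalization but not with the first scaling. Among immediate early and feedback genes, NR4A1, an orphan nuclear receptor, was at least 26.5-fold higher and the pseudokinase TRIB1 rose by 2.77 ± 0.09, while FOSB and MYC were not called.

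Of the genes left among the largest rises, LGALS9 encodes galectin-9, a sugar-binding immune regulator, and stood at 2.49 and 2.61 against -2.52 and -2.36 (4.99 ± 0.55, 31.9-fold). ALPL, tissue-nonspecific alkaline phosphatase of bone and stem cells, was at 3.02 and 3.07 against -1.15 and -1.22 (4.23 ± 0.16). Genes named HSP70 (3.22 ± 0.09, 4 of 4 probes) rose too, whereas none of the 6 tested chaperones of the prepared list was called. ADGRL2, an adhesion receptor of the latrophilin family, was at least 70.7-fold above a Stylo parent level not well above background, with 4 of 4 probes called. With normexp its log2 difference was 3.27. ADORA2A, an adenosine receptor, was at least 10.9-fold and the glycosyltransferase B3GALT4 at least 8.15-fold higher. Each of these genes was higher on both Stylo CSC arrays than on either Stylo parent array.

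The largest falls not yet described covered several functions. SELENOT, a selenoprotein of the endoplasmic reticulum, was at 8.99 and 8.52 in Stylo parent and 5.74 and 5.54 in Stylo CSC (-3.12 ± 0.19, or -1.72 with quantile normalization). TIMM8A, which chaperones proteins into the mitochondrial inner membrane, was at 2.96 and 2.84 against -0.93 and -0.74 (-3.74 ± 0.11) and was lower under each of the 7 scalings. VMA21, an assembly factor of the proton pump of lysosomes (-3.10 ± 0.12), SNRPG, a core spliceosome protein (-3.05 ± 0.09), and SVIP, an inhibitor of ER-associated degradation (-3.03 ± 0.12), fell and held. SLC35A1, which carries CMP-sialic acid into the Golgi (-3.07 ± 0.12), and GPX8, a peroxidase of the endoplasmic reticulum (-2.89 ± 0.12), did likewise. The kinase STK38L (-3.01 ± 0.12, 4 of 4 probes), the muscle creatine kinase CKM (-3.08 ± 0.25), the phagocyte oxidase subunit CYBB (-2.90 ± 0.21) and carbonic anhydrase CA2 (-2.90 ± 0.59) complete the 15 largest falls.

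The translocon list shows how far such falls depend on scaling. Its members guide new secretory proteins into the endoplasmic reticulum. Of 16 tested, 9 were called lower and 1 higher, and with quantile normalization as a second condition 6 falls and the rise were left. SEC61G, a small subunit of the channel, was at 8.01 and 8.09 against 5.40 and 5.42 (-2.64 ± 0.09, or -1.39 with quantile normalization). SSR4 (-2.62 ± 0.13) and the signal recognition particle subunit SRP14 (-2.75 ± 0.47) fell and held. SEC61A1, the pore-forming subunit of the same channel, went up, from 5.96 and 6.03 to 7.56 and 7.43 (1.50 ± 0.29). The median was -1.40, -0.82 with quantile normalization, 0.70 with spike-in scaling and 0.05 with normexp.

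Ribosomal protein genes, the brightest group, gave no fall that held. Of 25 tested, 22 were called lower with the first scaling, with a median of -1.79, and none with quantile normalization, with a median of -0.14. RPS14, for example, was at 10.81 and 10.90 in Stylo parent and 9.07 and 9.19 in Stylo CSC (-1.73 ± 0.10), and its quantile-normalized difference was -0.05. Spike-in scaling put the list's median at 0.31. Respiratory chain and import genes were alike in this, with 5 of 8 lower but 2 under both scalings, TIMM8A and COX17 (-2.46 ± 0.12). Among 22 antioxidant genes 11 fell and 6 of these held. SOD1 (-2.24 ± 0.14), called lower with the first scaling, stood at -0.84 with quantile normalization.

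**Figure D3:**
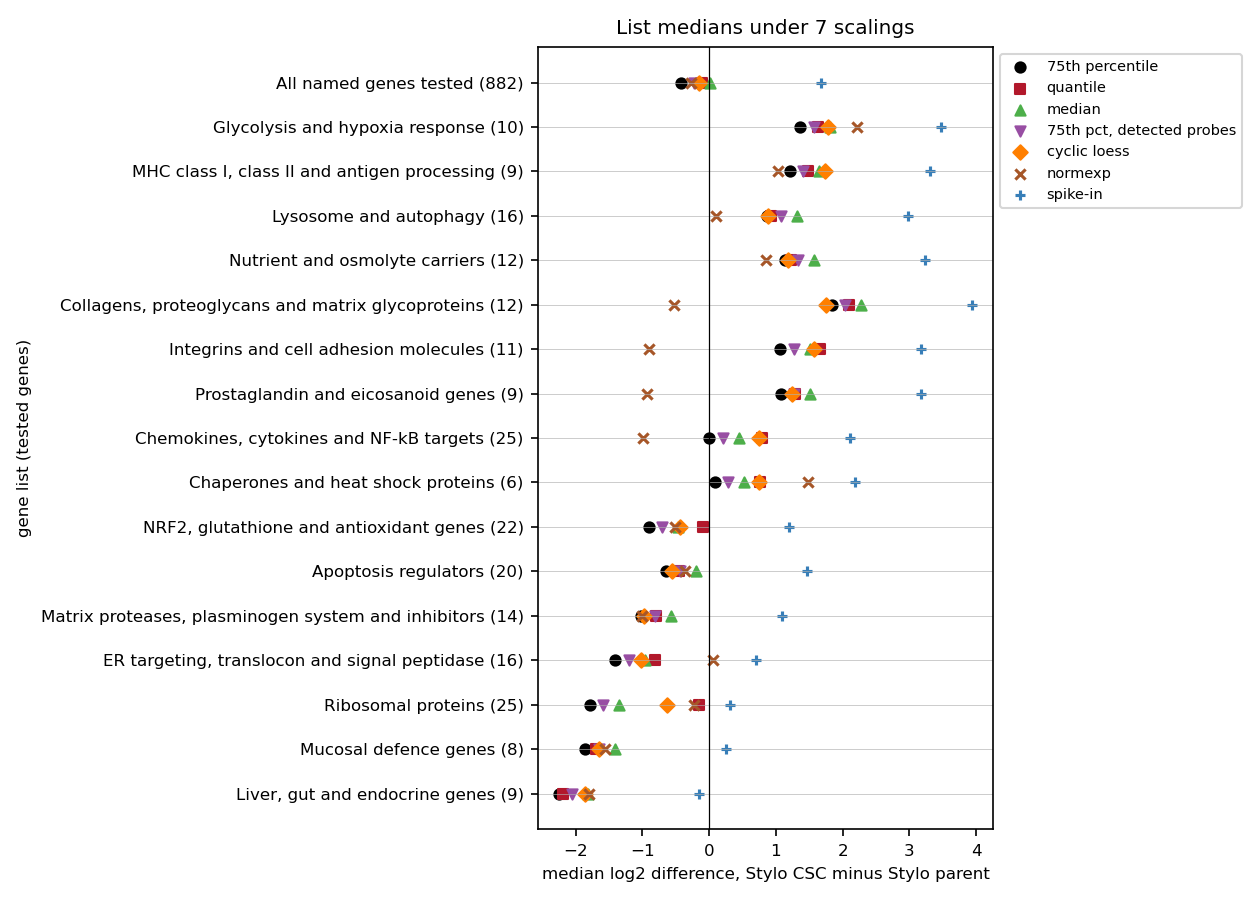
Median log2 difference, Stylo CSC minus Stylo parent, of all 882 named genes tested and of 16 gene lists (number of tested genes in parentheses) under 7 scalings, 1 marker each. Glycolysis and antigen presentation genes stay above 0 under all 7, the ribosomal median moves from -1.79 to 0.31, and the medians of the matrix, adhesion and prostaglandin lists fall below 0 with normexp alone.

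Genes of survival and division were called lower in shares near that of all named genes (35.5%), and higher less often than these (20.9%). MDM2, the ubiquitin ligase that degrades p53, was at 1.75 and 1.73 in Stylo parent and -0.11 and -0.32 in Stylo CSC (-1.96 ± 0.19). PMAIP1, the death-promoting protein NOXA (-2.32 ± 0.14), DIABLO, which frees caspases (-1.84 ± 0.22), and BIRC5, the mitotic survival factor survivin (-2.67 ± 0.44), fell, so that both pro- and anti-death genes were lower. Of 20 apoptosis genes 8 fell, and 6 of these held; the lone rise, CD40, was lost without Stylo CSC replicate 2 (adjusted p = 0.11) or Stylo parent replicate 1 (log2 0.75). BAX, BAK1, BCL2, BCL2L1 and MCL1 were not called. BIRC5 and the mitotic cyclin CCNB2 (-1.74 ± 0.09) were the called members among 6 cell cycle genes. CCND1 and CDKN1B were not called.

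Of 17 growth factor and receptor genes 6 were called lower, a share near the 35.5% of all named genes. Called higher were 2, a smaller share than the 20.9% of all named genes. Of the 6, 1, FLT3LG, had probes called in opposite directions. FGF5, a fibroblast growth factor, fell by 1.63 ± 0.09 on the log2 scale. HGF, the ligand of the MET receptor, rose from -1.05 and -1.15 to 0.97 and 0.93 (2.05 ± 0.13). ERBB2, FGFR2 and MET, receptors studied in mammary carcinoma, were not called. Among hormone receptors, the progesterone receptor PGR fell (-1.70 ± 0.09) and the glucocorticoid receptor NR3C1 rose (1.83 ± 0.27). NRAS was the furthest of 6 small GTPase genes called lower among 19 tested (-2.60 ± 0.11), and 3 of these falls held.

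Genes of mucosal defence and of liver, gut and endocrine tissue were mostly dim or not tested. TFF2, a mucosal trefoil peptide, was at 1.30 and 1.10 against -1.76 and -1.51 (-2.83 ± 0.12). The oxidase DUOX1 (-2.13 ± 0.27), the immunoglobulin transporter PIGR (-1.67 ± 0.12) and the iron-binding milk protein LTF (-1.98 ± 0.16) fell, and the elastase inhibitor PI3 rose (1.64 ± 0.14). In all, 6 of 8 tested mucosal genes fell and 1 rose. The iron hormone HAMP was at 1.17 and 1.09 against -1.39 and -0.85 (-2.25 ± 0.21), and ODAM (at least 6.59-fold), TSHB (at least 6.05-fold) and CGA (at least 5.05-fold) were lower, at sorted levels not well above background. The liver, gut and endocrine list had 8 of 9 tested genes called lower, but CGA, ODAM, PLG and TSHB were tested only through Stylo parent, where they are high, and could hardly be called otherwise. Of its 37 genes with a named probe, all but these 9 were not well above background on both arrays of either group.

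Markers of other cell types were read to see what else the samples could hold. Fibroblast markers split, by their representative probes, into 4 called higher (COL1A1, COL1A2, DCN and THY1, which has another probe called lower) and 3 lower (DPT, PDGFRB and S100A4) among 7, and PDGFRB was no longer called without Stylo CSC replicate 1 (log2 -0.76), Stylo parent replicate 1 (-0.87) or Stylo parent replicate 2 (-1.31). The summed signal of the 7, in units of the array's 75th percentile, was 1037 and 1079 in Stylo CSC and 1646 and 1893 in Stylo parent. Such a sum follows its brightest members, among them S100A4 (-1.96, or -0.24 and not called with quantile normalization). It does not give the direction of most markers: the median difference of the 7 was 1.64 (1.69 with quantile normalization). The part of this marker list in the matrix rises was not tested. Of 17 leukocyte markers with a named probe, 14, among them CD4, CD8A, CD79A, MS4A1 and FOXP3, were not well above background in both arrays of either group, and CYBB and S100A8 (-1.27 ± 0.09) fell. Adipocyte and muscle markers were lower in 3 of 4 tested (ADIPOQ, CKM and TNNI3). In bulk RNA, fewer cells of a type and less RNA per cell cannot be told apart.

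Several genes were read by more than 1 probe, which gives a check within the array. Of 373 genes with 2 or more tested probes, 149 had all probes called in 1 direction, and 10 had probes called in opposite directions (CLU, DMD, FLT3LG, GATD1, HGS, SLC37A4, THY1, TMBIM6, VPS52 and ZBTB4). THY1, a surface glycoprotein of fibroblasts and stem-like cells, had 1 probe at 4.80 and 4.73 against 1.88 and 2.18 (2.73 ± 0.13) and another at -0.17 and 0.10 against 2.33 and 2.10 (-2.24 ± 0.13). TMBIM6, an ER membrane inhibitor of cell death, had its representative probe at 5.20 and 5.21 against 7.15 and 7.31 (-2.03 ± 0.65) while the other 4 rose by 1.64 to 1.90. The call of the representative probe of TMBIM6 was lost without any 1 of the 4 arrays (log2 -2.11 to -1.95), and that of CLU without 3 of them. No single direction can be given for these 10 genes.

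The same sort of the resistant subline gave another pattern. The difference between the sort's effect in CMT-Stylo and in CMT-Star was called for 12830 of 24200 probes, which is 53.0%, 6341 of them higher and 6489 lower in CMT-Stylo. Of the 13047 probes called in CMT-Stylo, 10615 also differed from CMT-Star in the same direction, and 2143 of the 24200 were called within CMT-Star itself. Among the 882 named genes the difference between lines was called for 472 (53.5%), and in the same direction for 384 of the 497 called in CMT-Stylo. Both tests use the same Stylo values, and the probes were chosen by the Stylo groups alone. These overlaps are thus no independent support. For IL13RA2, sorted minus unsorted cells gave -7.74 ± 0.13 in CMT-Stylo and -0.74 ± 0.13 in CMT-Star. FBN1 rose in CMT-Stylo and stood at -1.39 ± 0.09 in CMT-Star, and CCL2 at -1.02 ± 0.11. For F3 no difference between the lines was called by the same test: it was at -1.80 ± 0.10 and -1.89 ± 0.10, with a difference of 0.09 ± 0.14 (adjusted p = 0.60). This error leaves room for a small difference. Arrays of the 2 lines came from different slide scans, while each line's sorted and unsorted arrays shared one. The 75th percentile of signal was 540 and 469 on the Star CSC arrays and 374 and 333 on the Star parent arrays. On the Stylo parent arrays it was 88.8 and 69.5, the lowest of all 8. The part of these dim arrays in the differences between the lines was not tested.

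**Figure D4:**
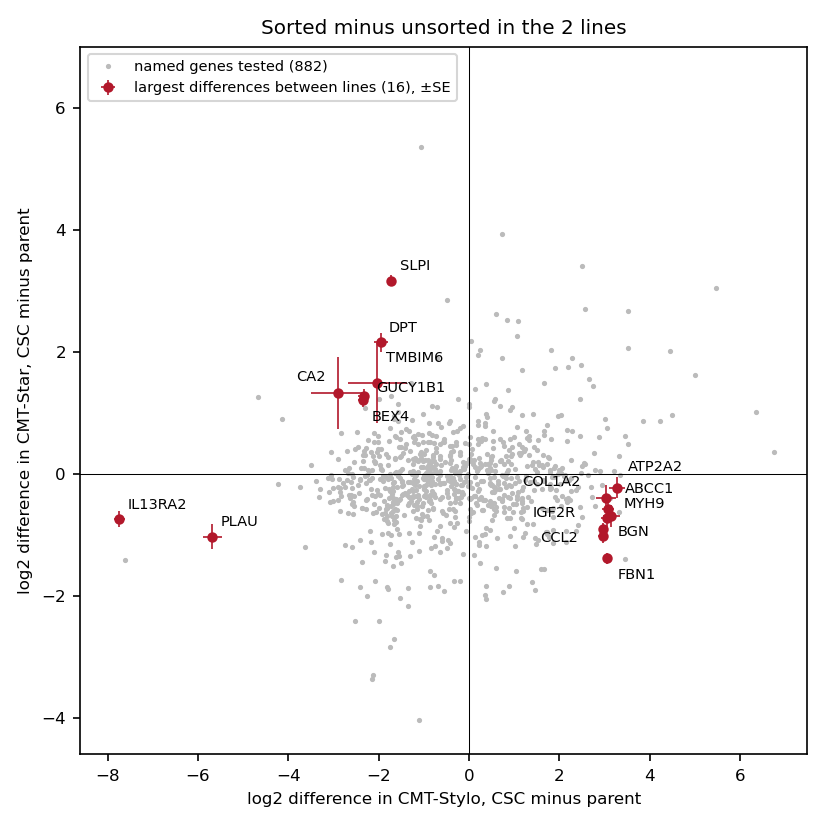
Log2 difference between sorted and unsorted cells in CMT-Star (vertical) against that in CMT-Stylo (horizontal) for the 882 named genes tested (grey) and the 16 with the largest called differences between the lines, well above background on all 8 arrays (red, bars ± SE). FBN1 and CCL2 lie in the lower right, IL13RA2 (-7.74 against -0.74) at the far left, and SLPI in the upper left.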

How the data were processed

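Total RNA was labelled with Cy3 and hybridised to 1-colour Agilent arrays, 2 per group. Agilent Feature Extraction 11.5.1.1 made the intensity files, per the submitters' processing notes. The deposited matrix holds log2 values by the authors, and over all probes compared it matched 75th-percentile scaling with each probe centred. The processed intensity, as deposited, was averaged over spots of a probe, taken to log2 and scaled to each array's 75th percentile over gene probes. limma 3.58.1 (R 4.3.3) was fitted to all 8 arrays with 4 group means, and eBayes p-values were adjusted over the 24200 tested probes. Of 43603 gene probes, 2326 (5.33%) could be given 1 of 1437 symbols through RefSeq accessions, and a gene's probe with the highest mean level stood for it. Named were the 15 largest called rises and falls above background on all 4 arrays, the 8 largest bounds each way, members of the gene lists, genes with opposing probes and the largest differences between lines. Some genes picked by this rule are not reported here. For a group not well above background, the bound is the bright group's mean against the dim group's, each dim array at the higher of its own signal and the lowest signal well above background. Replicate numbers did not pair the samples (correlation of deviations -0.107 in CMT-Stylo), so the main fit has no block. The members and lists were chosen with earlier results of these data known. On simulated data for this comparison, with 24115 probes of which 200 changed, the fit recovered 89.4% of changes of log2 size 3. Smaller changes were simulated as well, and their recovery is not reported here. The simulated arrays had no difference in brightness and a far smaller share of changed probes. The simulation thus cannot show how reliable the calls are on these arrays. The number of arrays limits the precision.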

Additional observations from a re-analysis of the deposited data

Results flagged for a closer look

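For 16 genes the effect of the sort differed most between the 2 lines, by a test of the difference itself (limma, n = 2 arrays per group, Benjamini-Hochberg adjusted over all 24200 probes). The largest adjusted p among them was 0.0159, and 6 of the 16 were called in opposite directions in the 2 lines. Values are the log2 difference in CMT-Stylo minus that in CMT-Star. Matrix and shape genes stood higher in CMT-Stylo: FBN1 by 4.45, BGN by 3.79, COL1A2 by 3.43 and MYH9 by 3.84. The chemokine CCL2 differed by 3.98, the lysosomal receptor IGF2R by 3.88, the efflux pump ABCC1 by 3.66 and the calcium pump ATP2A2 by 3.50. Lower in CMT-Stylo were the decoy receptor IL13RA2 (-7.00), the protease inhibitor SLPI (-4.89), urokinase PLAU (-4.65) and carbonic anhydrase CA2 (-4.22). So were the matrix protein DPT (-4.11), the guanylate cyclase subunit GUCY1B1 (-3.61), BEX4 (-3.55) and TMBIM6 (-3.52), whose other probes went the opposite way in CMT-Stylo. The 2 lines were scanned separately, and the Stylo parent arrays were dim. The part of the scan and of this dimness in these differences was not tested.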

How the results depend on the processing

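The count of 13047 called probes stayed within 1.5 times under quantile normalization (12783), median scaling (13117), normexp (13070), the deposited matrix values (13024), a fit of the 4 Stylo arrays alone (13267) and the replicate block (13024, with 497 named genes). The block changed no call of a gene named here. The crossed pairing of replicates, tried after seeing the data, gave 13037. Leaving out 1 array gave 12506 to 13027 probes (5609 to 5874 higher, 6878 to 7158 lower) and 484 to 501 named genes, and 11979 to 12824 differences between lines against 12830. Spike-in scaling gave 17067 higher and 264 lower, the demand for signal on all 4 arrays 3786 higher, and no filter on dim probes 28636 called (22747 lower, 956 named genes). With unadjusted p as well, chosen after seeing the data, 28971 were called. Dim Stylo parent arrays limit what can be said of low levels.

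Spike-in scaling, which shifts all differences up, turned 47 of 189 named genes from negative to positive log2 differences. These include ABCA4 0.10, ACAN 1.10, ADAM9 1.79, ADIPOQ 0.17, ALDH3A1 0.41, BAK1 1.80, BCL2L1 1.39, BMI1 1.37, CCL17 0.99, CCNB2 0.36, CDKN1B 1.27, CLU 0.88 and CTSK 0.30. Others were DIABLO 0.26, DPT 0.14, ERBB2 1.76, F3 0.30, FGF5 0.47, FLT3LG 0.90, GATD1 0.043, GJB2 0.38, HGS 0.78, KCNE2 0.53, KCNMB1 0.94 and KRT14 1.13. Further ones were LDHB 0.47, LTA 0.24, LTF 0.12, MCL1 1.46, MDM2 0.15, MYC 1.99, OAS2 1.86, PDGFRB 1.01, PGR 0.40, PIGR 0.43 and RPS14 0.38. The rest were S100A4 0.14, S100A8 0.83, SLC37A4 1.00, SLC7A1 0.45, SLCO2A1 0.56, SLPI 0.38, TERT 1.59, TMBIM6 0.073, TNC 1.00, TNNI3 0.43 and VEGFA 1.51. With normexp the log2 differences turned to CD40 -1.49, CDH1 -0.088, CLU 0.39, DAG1 -0.41, IL6 -0.029, MMP11 -1.75, OAS3 -1.79, PROM1 -0.24, PTGES2 -0.54, SMOC2 -0.65, TCF4 -0.15, TIMP3 -1.59 and TLR2 -0.55. CLU, whose probes disagree, also turned with quantile normalization (0.59) and cyclic loess (0.22). For each of these changes other than the spike-in shift, the cause was not tested.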

Other observations

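Some genes outside the lists above were called higher in Stylo CSC under each of the 7 scalings; these were picked after their values were seen. HMGA1, a chromatin protein of embryonic and tumour cells, was at 7.64 and 7.50 against 5.02 on both Stylo parent arrays (2.55 ± 0.11). IL18BP, the secreted antagonist of interleukin-18, rose by 2.74 ± 0.14. BACE1, which cleaves the amyloid precursor, rose by 2.64 ± 0.10, and its substrate APP and the gamma-secretase subunit NCSTN by 1.18 and 2.15. PLOD1, which hydroxylates collagen lysines, rose by 2.45, and GLUL, which makes glutamine, by 2.47.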
